A study of Rattus norvegicus with 6 samples.

Results

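Fabp2, Liph, Defb1, Alox15 and Rnase1 were followed in the liver of rats given a dye intermediate. They are 5 of the 15284 genes named on the array, and they were chosen by name because their signal was higher in the treated rats, so their difference between the groups is a description and carries no test. All non-control probes assigned to them through their RefSeq accession were used, which gave 7 probes of 61657: 1 each for Fabp2, Defb1 and Alox15, and 2 each for Liph and Rnase1. Liver RNA came from 6 male Sprague-Dawley (Crl:CD(SD)) rats bought at 5 weeks of age and fed a basal diet, with 1 single-colour Agilent array per rat and 3 rats per group. One group had received 1-amino-2,4-dibromoanthraquinone (ADBAQ), an anthraquinone dye intermediate, at 1000 mg/kg/day, and the other vehicle only. The labels disagree on this vehicle (purified water or corn oil), and they give the time as 28 days in the titles and design but as 9 weeks in the treatment protocol.

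The 5 genes belong to no single pathway. What joins them is that epithelial surfaces, the gut among them, are among the places where they are known to be used. Fabp2 encodes the intestinal fatty acid binding protein, a small cytosolic carrier of long-chain fatty acids in enterocytes, whereas hepatocytes mainly use its relative Fabp1. Liph encodes lipase H, a secreted or membrane-bound phospholipase that releases lysophosphatidic acid, a lipid signal read by its own receptors. Alox15 encodes a lipoxygenase that adds oxygen to arachidonic and linoleic acid, and it is known from airway epithelium and also from eosinophils and macrophages. Defb1 encodes a beta defensin, an antimicrobial peptide made by many epithelia. Rnase1 encodes the pancreatic-type secreted ribonuclease, which endothelial cells make as well. Only Fabp2 is thus known mainly from the gut.

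Promoters are shown because the 5 genes were picked for a higher signal in the same rats. RefSeq promoter sequences of the GRCr8 assembly, from 250 bases before to 50 bases after the start site, were at hand for 3 of them, Fabp2, Liph and Rnase1. Capitals mark the match to the core of the site bound by HNF4, a nuclear receptor of liver and gut epithelium, searched on both strands as CAAAGTNCA after the sequences had been seen.

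Fabp2 promoter (chr2:213724379-213724678, plus strand): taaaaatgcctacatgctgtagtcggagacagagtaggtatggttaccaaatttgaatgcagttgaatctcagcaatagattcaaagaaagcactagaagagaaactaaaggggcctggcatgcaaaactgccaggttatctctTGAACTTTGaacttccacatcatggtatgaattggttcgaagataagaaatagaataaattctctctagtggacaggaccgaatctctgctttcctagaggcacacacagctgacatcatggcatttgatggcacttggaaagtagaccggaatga
Liph promoter (chr11:92537660-92537959, plus strand): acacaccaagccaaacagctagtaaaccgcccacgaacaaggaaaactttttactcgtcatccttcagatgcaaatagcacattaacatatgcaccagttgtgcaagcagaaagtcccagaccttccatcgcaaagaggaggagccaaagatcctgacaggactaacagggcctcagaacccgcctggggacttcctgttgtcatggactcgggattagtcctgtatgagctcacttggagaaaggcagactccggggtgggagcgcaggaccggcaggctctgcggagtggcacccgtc
Rnase1 promoter (chr15:26837096-26837395, minus strand): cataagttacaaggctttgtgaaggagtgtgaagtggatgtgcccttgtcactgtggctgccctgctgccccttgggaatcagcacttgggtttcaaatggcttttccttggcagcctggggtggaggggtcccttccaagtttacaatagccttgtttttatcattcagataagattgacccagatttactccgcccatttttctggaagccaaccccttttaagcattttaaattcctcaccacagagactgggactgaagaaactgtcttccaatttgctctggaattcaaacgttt

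The Fabp2 window held 1 such match, on the minus strand, beginning at position -106 from the start site, and 1.24% of the 33469 promoters in the table held at least 1. Because this motif was chosen with the sequences in view, that share does not measure how rare the match is. The other motifs were searched on both strands: the aryl hydrocarbon receptor core GCGTG (in 29.7% of all promoters), the NRF2 element TGACNNNGC (12.1%), the CDX site TTTATG (12.7%) and the STAT6 site (7.28%). None of these letters was found in the 3 windows, which says nothing about the factors.

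Levels are given as processed signal, the background-subtracted brightness of a probe on a linear scale, and as its log2 relative to the 75th percentile of the same array. A probe counts as detected where the scanner software called it well above background. Between 62.1% and 65.3% of probes were detected on an array and none was saturated. All 16 hepatocyte markers were detected on all 6 arrays, and 10 of them were lower and 1 higher in ADBAQ in limma, with a median log2 difference of -0.47. With quantile normalization 4 were lower and 1 higher, and with spike-in scaling 3 were lower and 7 higher. The part of this in the values below was not tested. The number of arrays limits the precision. Each group lay on a slide and a scan date of its own, so slide, scan date and treatment cannot be told apart. In bulk liver, fewer cells of a type and less RNA per cell cannot be told apart either. Over all 11344 named genes tested, 20.3% passed an adjusted p of 0.05 in limma, 9.05% higher and 11.3% lower in ADBAQ, and in 21.2% all 3 ADBAQ values lay above all 3 vehicle values. The counts of each list below are to be read beside these shares. Calls numbered 2308, of which 44.5% were higher. They numbered 4041 with 34.5% higher under normexp background correction, 3530 with 32.4% higher without a filter on dim probes, and 9130 with 97.9% higher when scaled to the spike-in controls. That last scaling places the median of all genes at 0.72 against -0.04. Leaving out an array gave 1314 calls (vehicle replicate 2), 1327 (vehicle replicate 3), 901 (ADBAQ replicate 1), 1143 (ADBAQ replicate 2) or 1049 (ADBAQ replicate 3).

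Fabp2 was the only one of the 5 with a strong signal in untreated liver. The vehicle rats had a processed signal of 648, 714 and 550, and the ADBAQ rats one of 7391, 4509 and 2540. On the log2 scale this was 0.51, 0.63 and 0.35 in vehicle and 3.52, 2.98 and 2.09 in ADBAQ. The vehicle rats lay within 1.22-fold of each other, the ADBAQ rats spread over 2.7-fold, and the lowest ADBAQ rat was 2.75-fold above the highest vehicle rat. The difference was 2.37 ± 0.43 (log2, SE from the spread of the arrays, n = 3 rats per group), or 5.17-fold. It was 2.26 with normexp background correction, so it rested little on how background was treated. The spot signal was 13.3 to 16.3 times its local background in vehicle and 49.1 to 159 times in ADBAQ.

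The relatives of Fabp2 were read next. Leaving Fabp2 out, 1 of 10 tested members rose and 3 fell, against 9.05% higher and 11.3% lower over all genes. Their median log2 difference was -0.21. Fabp1, the main liver form, named after its value was seen, had a level of 10.38 in vehicle and 9.92 in ADBAQ on the log2 scale and did not pass the threshold (-0.45, adjusted p = 0.0778 in limma). Fabp7, the brain-type form, fell by 1.92 ± 0.30 on the log2 scale (adjusted p = 0.0123), and stayed called with each array left out. Crabp2, a retinoic acid carrier, fell by 0.87, while Fabp12 rose by 0.47. Of the 6 fits that leave out an array, 0 kept the call of Fabp12 and 1 kept that of Crabp2. The call of Crabp2 was also lost with spike-in scaling. Scaled in that way the family had 5 members higher and 1 lower. Fabp6, the ileal bile acid carrier and like Fabp2 a gut form, was detected on 1 vehicle array and on no ADBAQ array.

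Liph was seen only in the treated rats. The brighter of its probes had a processed signal of 5.8, 13.8 and 2.6 in vehicle, where no array detected it, and of 129, 140 and 330 in ADBAQ, where it was on all 3. The groups did not overlap, and ADBAQ replicate 3 stood above the other two. Set against the lowest detected signal of each vehicle array, or the probe's own value where that is higher, Liph was at least 10.7-fold higher. A fold built in this way is given as a bound, because the vehicle level itself was too dim to measure. The bound is approximate, since an undetected probe can read above the lowest detected signal. This one did so on vehicle replicate 2 (13.8 against 13.02). The second probe read 3.89, 5.92 and 2.98 in vehicle and 45.2, 37.7 and 75.7 in ADBAQ, at least 3.04-fold higher. Both probes put ADBAQ replicate 3 highest. In vehicle the spot of the brighter probe was dimmer than its local background (0.484 to 0.664 times), and in ADBAQ it was 2.8 to 6 times as bright. For the second probe these ranges were 0.55 to 0.578 and 0.963 to 1.34. Normexp background correction adds an offset of 50, which shrinks ratios between dim spots, and under it the log2 difference was 1.62 for the brighter and 0.24 for the second probe.

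Among the other lipases, the hepatic lipase gene Lipc fell by 0.86 ± 0.12 on the log2 scale (adjusted p = 0.00866 in limma), a call lost with spike-in scaling. Lpl, lipoprotein lipase, rose by 0.81 ± 0.12 (adjusted p = 0.0114), a call lost with normexp background correction. Pla1a, a phospholipase of phosphatidylserine, fell by 1.19 (adjusted p = 0.0486) with all 6 arrays but was called again in only 1 of the 6 fits that leave out an array, the one without ADBAQ replicate 3. Of the 8 tested lipases other than Liph, 1 rose and 2 fell, against 9.05% higher and 11.3% lower over all genes. Their median was -0.08. Lipi, the closest relative of Liph, was detected on 1 ADBAQ array. The pancreatic and gastric lipase genes Pnlip, Pnliprp1, Pnliprp2 and Lipf and the endothelial lipase gene Lipg were not well above background on any array. The lysophosphatidic acid list, which holds the receptors and the enzymes around them, had none of 10 higher and 2 lower, with a median of -0.01. The receptor gene Lpar2 fell by 1.12 (adjusted p = 0.0222) but was not called without vehicle replicate 1 or 2, ADBAQ replicate 1 or 2, or with spike-in scaling. The phosphatase gene Plpp3 fell by 0.76 ± 0.11 (adjusted p = 0.0101) but stood at 0.00 with spike-in scaling. Enpp2, the secreted enzyme autotaxin that makes most circulating lysophosphatidic acid, had a difference of 0.04 (adjusted p = 0.859).

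Alox15 was dim but detected on all 6 arrays. Its processed signal was 42, 48.8 and 50.8 in vehicle and 643, 213 and 486 in ADBAQ. The vehicle rats lay within 1.27-fold of each other, and ADBAQ replicate 2 was the lowest of the treated rats, 3.17-fold above the highest vehicle rat. The log2 difference was 2.68 ± 0.45, or 6.42-fold, and 1.82 with normexp background correction. The spot was 1.15 to 1.38 times its local background in vehicle and 4.09 to 11.3 times in ADBAQ.

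No other gene of the lipoxygenase and leukotriene list was called, among 8 tested, whose median was -0.11 (limma, 1 at an unadjusted p under 0.05). Ptgs1, a cyclooxygenase, had a difference of -0.03 (adjusted p = 0.841 in limma) and Lta4h, which makes leukotriene B4, one of -0.26 (adjusted p = 0.104). Alox12, the platelet-type lipoxygenase, was detected on 2 ADBAQ arrays and no vehicle array. Alox5, Alox15b, Alox12e and Ptgs2 were not well above background on any array. Eosinophils and macrophages are known sources of Alox15, so their markers are given beside it. Among 10 tested markers of eosinophils, mast cells and basophils, 1 was higher (Mcpt1, 1.39, a call lost with normexp background correction and without vehicle replicate 2 or any 1 ADBAQ array) and 1 lower (Tpsab1, a mast cell tryptase, -0.84, lost with spike-in scaling). Of the eosinophil genes, Epx, Ccr3 and Il5ra were not well above background on any array, whereas Prg2 and Siglec5 were detected on all 6, with differences of 0.58 (adjusted p = 0.186 in limma) and -0.33 (adjusted p = 0.68). The summed level of the list was 8.43 to 17.7 in vehicle and 4.84 to 10.1 in ADBAQ, in multiples of the 75th percentile. Hdc, Tpsab1 and Mcpt9, named for their levels, made up most of it (log2 levels of 2.23, 1.64 and 0.62 in vehicle). Hdc overlapped between the groups (-0.68, adjusted p = 0.573 in limma). Prg2 and Siglec5 stood at -3.06 and -2.45 in vehicle, so the sum says little about eosinophils. In the macrophage and type 2 response list, 2 of 17 were higher (Il13ra2, a decoy receptor of interleukin 13, 1.63, and the chemokine Ccl17, 1.62) and 2 lower (Arg1, -0.59, and Tgm2, -0.44). None of these 4 calls held with each array left out, those of Il13ra2 and Ccl17 were lost with normexp background correction, and Arg1 and Tgm2 changed sign with spike-in scaling, to 0.17 and 0.32. The summed level was 361 to 407 in vehicle and 295 to 298 in ADBAQ. Arg1, which is also the arginase of the hepatocyte urea cycle, made up most of it (log2 level 7.91 in vehicle and 7.32 in ADBAQ). The macrophage genes Cd68, Cd163, Adgre1, Clec4f and Csf1r had differences of 0.03 to 0.21, and none was called. The part of these cells in the Alox15 values was not tested.

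**Figure D1:**
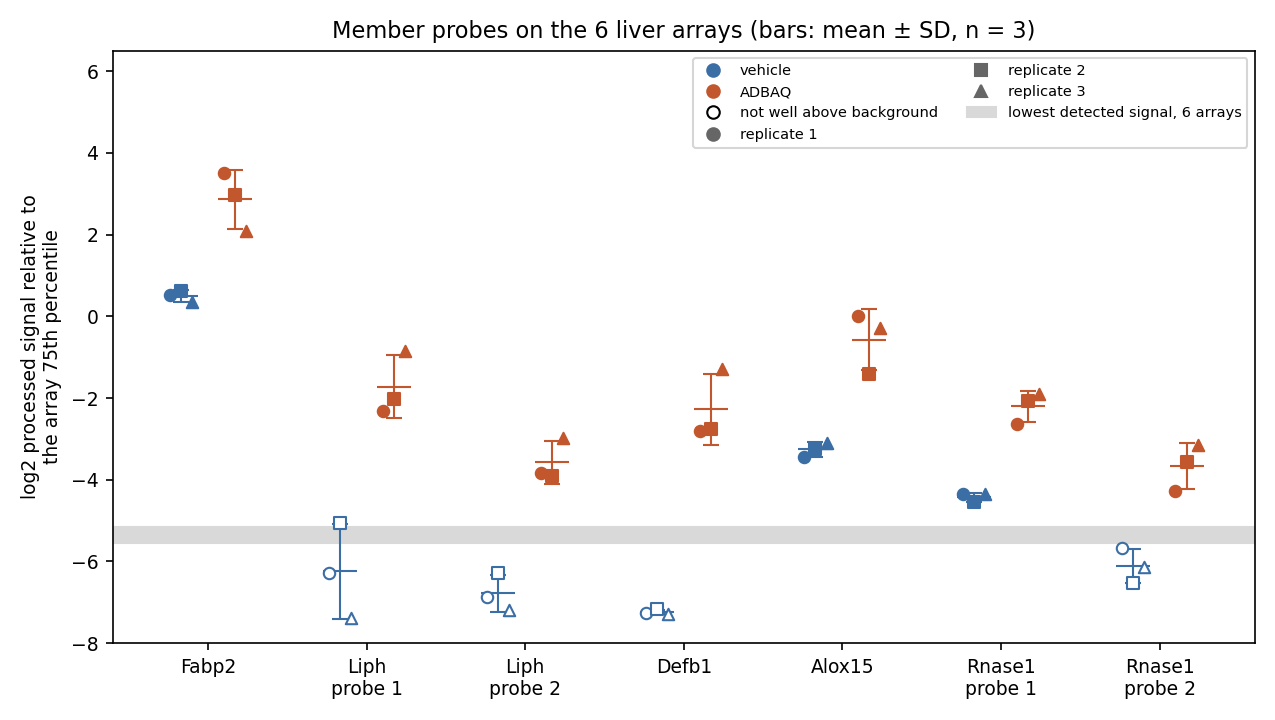
The vertical axis gives the log2 processed signal relative to the 75th percentile of the array for the 7 probes of the 5 genes, with 1 point per rat and bars for mean ± SD (n = 3). The filled ADBAQ points lie above all vehicle points for every probe, and the open vehicle points of Liph, Defb1 and the second Rnase1 probe lie near or below the grey band of lowest detected signals.

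Defb1 was likewise seen only in the treated rats. Its processed signal was 2.99, 3.2 and 2.78 in vehicle, where no array detected it, and 91.7, 84.5 and 244 in ADBAQ, detected on all 3. ADBAQ replicate 3 was the highest, 2.88-fold above the lowest treated rat, and the groups did not overlap. Defb1 was at least 7.44-fold higher. Its spot was 0.413 to 0.5 times its local background in vehicle and 1.85 to 3.98 times in ADBAQ. The log2 difference was 4.95 when the undetected vehicle values were used as they stood, which gives no measured size. It was 1.29 with normexp background correction.

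Of 9 tested genes for other defensins and antimicrobial proteins, 3 were called higher and none lower, with a median of 0.06. Over all genes 9.05% were called higher and 11.3% lower. Slpi and Wfdc2, named for their size of change, were lower on average but overlapped between the groups and were not called. Their differences were -2.19 ± 1.25 (adjusted p = 0.257 in limma) and -1.93 ± 0.88 (adjusted p = 0.171). Lcn2, lipocalin-2, an iron-siderophore binding protein of epithelia and neutrophils, rose by 2.29 ± 0.27 (adjusted p = 0.00646 in limma). Its log2 levels were -2.34, -2.52 and -2.33 in vehicle and -0.71, 0.39 and -0.01 in ADBAQ, and the call held with each array left out. Lyz2, the lysozyme of macrophages, rose by 0.88 ± 0.14 (adjusted p = 0.0122), and its second probe was 1.10 higher. Defa5, an alpha defensin of Paneth cells, was at least 6.02-fold higher. No vehicle array detected it, so it entered the test only through its ADBAQ arrays, and among the 8 genes detected on all 6 arrays 2 were called. Its ADBAQ values of -1.12, -4.55 and -1.95 spread widely. It did not pass with normexp background correction, with quantile normalization, and in 5 of the 6 fits that leave out an array, all but the one without ADBAQ replicate 2. The beta defensin genes Defb2, Defb4 and Defb10 and the gut lectin genes Reg3b and Reg3g were not well above background on any array, and Defb9 and Defb14 were so on 1 ADBAQ array each. Defb24 had a difference of -0.10 (adjusted p = 0.574).

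Rnase1 was near the limit of detection in vehicle. The brighter probe read 22.2, 19.7 and 21.1 in vehicle and 103, 136 and 159 in ADBAQ, detected on all 6 arrays. The second probe read 8.84, 5.04 and 6.16 in vehicle, where no array detected it, and 33.3, 48 and 66.9 in ADBAQ. Both probes ranked the treated rats alike, with ADBAQ replicate 3 highest and replicate 1 lowest, and neither had overlapping groups. The difference was 2.22 ± 0.23 on the log2 scale for the brighter probe, or 4.65-fold, and the second probe was at least 2.85-fold higher. With normexp background correction the log2 differences were 0.76 and 0.35. In vehicle the spot of the brighter probe, though flagged as detected, was dimmer than its local background (0.855 to 0.923 times), and in ADBAQ it was 2.4 to 3.08 times as bright. For the second probe these ranges were 0.578 to 0.738 and 1.23 to 1.75.

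Rnase4, a secreted ribonuclease, fell by 1.20 ± 0.17 on the log2 scale (adjusted p = 0.00925 in limma), with 1.19 for the fall of its second probe. The angiogenin genes Ang and Ang2 fell by 1.01 and 0.94, with calls that held with each array left out but not with spike-in scaling (-0.25 and -0.18). Ang and Ang2 are near-identical, so their probes may read both. Rnase1l2, a close copy of Rnase1, was at least 1.86-fold higher. It entered the test only through its ADBAQ arrays, its difference was -0.02 with normexp background correction and its call was lost without any 1 array. Probe sequences were not examined, so signal from Rnase1 on this probe, and the reverse, was not tested. Rnase1l1 had a difference of 0.15 (adjusted p = 0.633). Rnh1, the cytosolic inhibitor of these ribonucleases, had one of -0.05 (adjusted p = 0.706). In all, 1 of 9 tested members other than Rnase1 was called higher and 3 lower, against 9.05% higher and 11.3% lower over all genes. Their median was -0.40, and among the 6 detected on all arrays none was called higher and 3 lower.

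Rnase1 is a major product of the exocrine pancreas, which lies next to the liver, and the pancreatic markers were therefore read on the same arrays. None of 8 tested was called in limma (1 at an unadjusted p under 0.05), and their median was 0.01. The trypsinogen gene Prss1, the carboxypeptidase gene Cpa1, the elastase gene Cela3b, the lipase gene Pnlip and the colipase gene Clps were among 10 of 20 that were not well above background on any array. Between 7 and 9 of the 20 were detected on a vehicle array and 8 or 9 on an ADBAQ array, and the summed level was 1.45 to 2.72 and 1.22 to 2.88 multiples of the 75th percentile. Spink1 had a difference of 0.06 (adjusted p = 0.967 in limma) and Ctrb1 one of -0.04 (adjusted p = 0.844). Endothelial markers, the other known source, had none of 14 called (3 at an unadjusted p under 0.05) and a median of -0.11, with Kdr at -0.28 (adjusted p = 0.0842) and Plvap at -0.13 (adjusted p = 0.627). Their summed level was 45.5 to 47.8 in vehicle and 36.7 to 42.5 in ADBAQ. Kdr made up most of it (log2 level 5.04 in vehicle and 4.76 in ADBAQ), so the sum says little about the other markers.

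**Figure D2:**
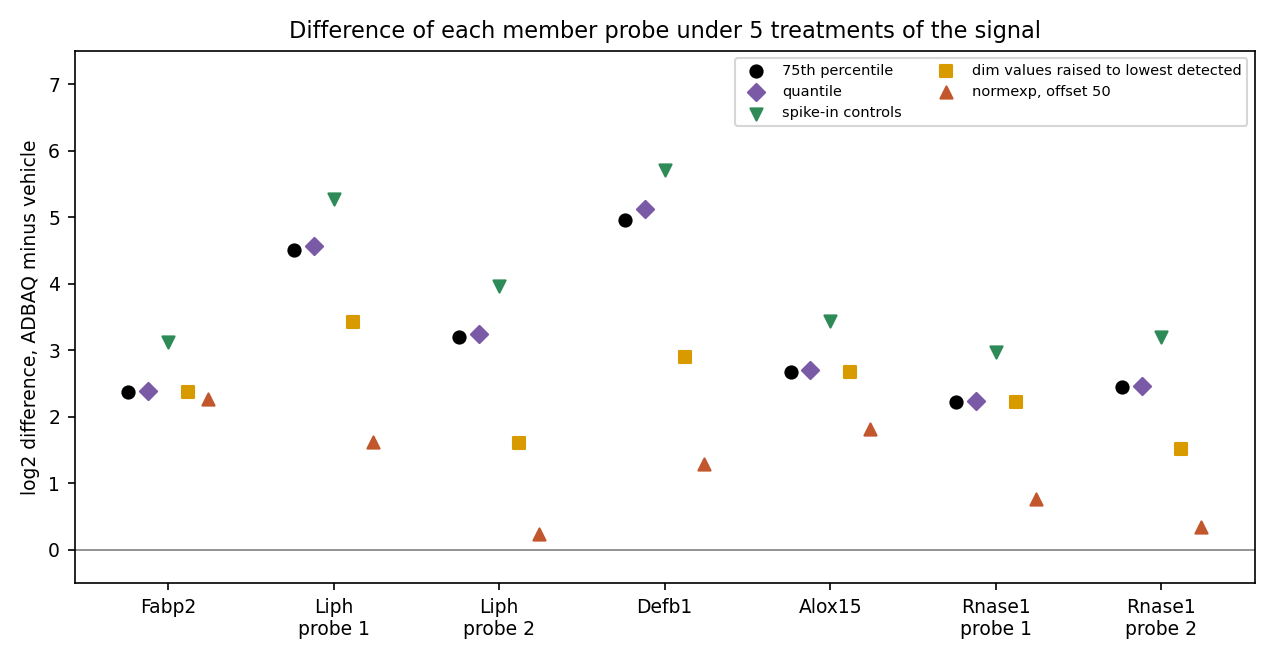
The vertical axis gives the log2 difference, ADBAQ minus vehicle, of the 7 probes under 5 ways of treating the signal, with 1 symbol per way. Fabp2 hardly moves between 2.26 and 2.39 except under spike-in scaling (3.13), whereas the probes of Liph, Defb1 and Rnase1 drop with normexp background correction, to 0.24 for the second Liph probe.

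The treated rats did not share one order over the 5 genes. For Liph, Defb1 and Rnase1 the highest signal was in ADBAQ replicate 3, on all 5 of their probes. For Fabp2 and Alox15 it was in ADBAQ replicate 1, and Fabp2 was lowest in replicate 3. The genes whose values followed each member most closely over the 6 arrays are given as a description, because any gene that differs between the groups correlates with them. With r over 0.95 there were 205 genes for Fabp2 (1.81% of the other tested genes) and 411 for Defb1 (3.62%). For Liph there were 279 (2.46%), for Alox15 283 (2.5%) and for Rnase1 295 (2.6%). The closest to Defb1 were Snap29, Cyp1b1 and Sanbr (r of 1, 0.999 and 0.999). Each of these had ADBAQ replicate 3 highest, as Defb1 had, which follows from their choice by correlation. Cyp1b1, an enzyme whose gene is a target of the aryl hydrocarbon receptor, read -1.31, -1.44 and 0.21 in ADBAQ replicates 1 to 3. No vehicle array detected Cyp1b1 or Defb1, so their likeness rests on undetected vehicle values in both. The other r values of Defb1, and those of Liph below, likewise use undetected vehicle values of Defb1 or Liph. The closest to Liph were Wdr31, Tk1 and Ttc8 (0.999, 0.998 and 0.998) and to Rnase1 Nmnat1, Cab39 and Slc16a5 (0.994, 0.993 and 0.993). For Fabp2 they were Taf9, Rrp7a and Vipas39 (0.998, 0.995 and 0.993), and for Alox15 Skic8, Tubb4b and Gnpda2 (0.998, 0.996 and 0.996). The differences of these last 6 genes ranged from 0.19 to 0.64, far smaller than those of Fabp2 and Alox15.

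Enterocyte markers were read to see whether a gut programme accompanied Fabp2. Leaving Fabp2 out, 2 of 18 tested rose and 3 fell, against 9.05% higher and 11.3% lower over all genes, and the median was -0.11. Slc15a1, the intestinal peptide transporter, was at least 2.10-fold higher, with log2 values of -7.21, -7.16 and -7.27 in vehicle and -3.56, -4.33 and -4.44 in ADBAQ. This rests on 1 of its 3 probes, since the other two were not well above background on any array. Cdhr5, a protocadherin of the brush border, was at least 1.40-fold higher, again on 1 of its 2 probes, and its call was lost without ADBAQ replicate 2 or 3. Both genes entered the test only through their ADBAQ arrays, and among the 14 markers detected on all 6 arrays none was higher and 2 were lower. With normexp background correction neither was called, at 0.07 and -0.01. Apoa4, an apolipoprotein of gut and rodent liver, fell by 3.08 ± 0.19 on the log2 scale (adjusted p = 0.00129 in limma), from 8.89, 9.03 and 9.20 to 5.98, 6.29 and 5.60. Anpep, an aminopeptidase chosen after its value was seen, fell by 0.87 (adjusted p = 0.0117), a call lost with spike-in scaling. Scaled to the spike-in controls, 12 of the 18 were higher and 1 lower, with a median of 0.65 against 0.72 for all genes.

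Detection differed widely among the enterocyte markers. Cdh17, a cadherin, and Slc2a2, a glucose transporter of liver and gut, had high mean levels in vehicle (log2 levels of 2.92 and 4.75). Their differences were -2.10 ± 1.8 (adjusted p = 0.44 in limma) and -0.18 ± 0.11 (adjusted p = 0.29). The groups overlapped for both, and the values of Cdh17 were widely scattered. Vil1, villin of the microvillus core, and Tmprss15, Mep1a, Mep1b, Slc6a19 and Slc26a3 were not well above background on any array. Alpi, intestinal alkaline phosphatase, and Lct, lactase, were detected on all 6 arrays on 1 of 3 probes each and had differences of -0.24 (adjusted p = 0.132 in limma) and -0.34 (adjusted p = 0.0921). Between 16 and 17 of 27 markers were detected on a vehicle array and between 18 and 19 on an ADBAQ array. Their summed level, which Fabp1 and Apoa4 dominate, was 1876 to 1982 in vehicle and 896 to 1213 in ADBAQ. The part of gut cells in the values of the 5 genes was not tested beyond these measurements.

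**Figure D3:**
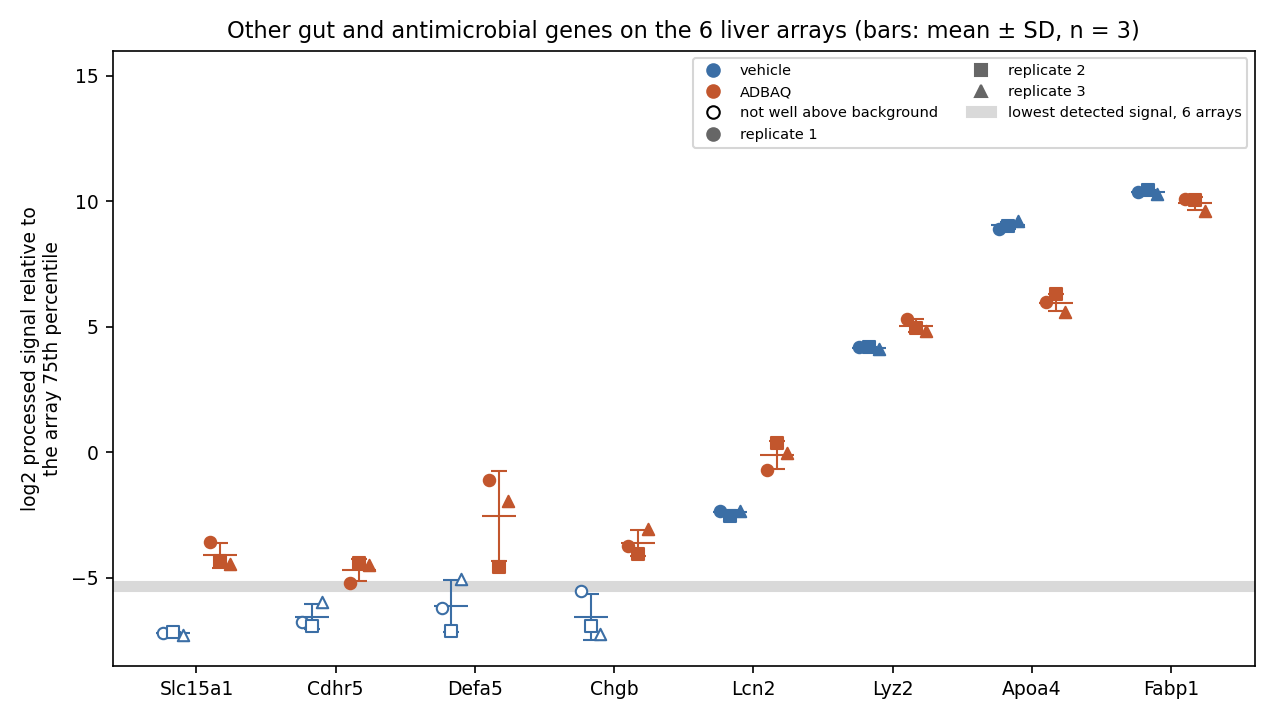
The vertical axis gives the log2 processed signal relative to the 75th percentile of the array for 8 other gut or antimicrobial genes, with 1 point per rat and bars for mean ± SD (n = 3). Slc15a1, Cdhr5, Defa5 and Chgb have open vehicle points near or below the grey band of lowest detected signals, Lcn2 and Lyz2 are higher in ADBAQ from measured levels, and Apoa4 is lower.

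Other gut cell types were read in the same way. None of 5 tested goblet cell markers was called in limma, and 0 had an unadjusted p under 0.05, with Tff3, a trefoil peptide, at 0.23 (adjusted p = 0.856 in limma) and Tff1 at 0.17 (adjusted p = 0.608), and Agr2, Clca1, Fcgbp, Tff2 and Retnlb were not well above background on any array. Paneth, tuft and enteroendocrine cells had 8 tested markers, of which 2 were higher and none lower, with a median of -0.24. One was Defa5, given above, and the other Chgb, a granin of endocrine granules, which was at least 2.95-fold higher, while its second probe gave at least 2.39-fold. Both entered the test only through their ADBAQ arrays, and among the 4 markers detected on all 6 arrays none was called. With normexp background correction Chgb was not called (0.36). Gut transcription factors had 2 of 12 higher and 1 lower, with a median of -0.03. Cdx2, which drives intestinal fate, had a difference of -0.04 (adjusted p = 0.922). Klf4 rose by 0.73 and Ehf by 0.75, neither called with normexp background correction nor without vehicle replicate 1, vehicle replicate 3 or ADBAQ replicate 1. The call of Klf4 also failed without ADBAQ replicate 3, and that of Ehf without vehicle replicate 2 or ADBAQ replicate 2. Foxa3, a hepatic and gut forkhead factor, fell by 1.32 ± 0.16 (adjusted p = 0.00665). With spike-in scaling 9 of the 12 were higher and 1 lower. Whether the 5 genes belong to a wider gut programme was not tested, and they are called by their names here.

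Bile ducts are the epithelium of the liver itself, so their markers were read as well. Of 14 tested cholangiocyte markers, 4 were higher and 1 lower, against 9.05% higher and 11.3% lower over all genes. The median was 0.50 against -0.04 for all genes, and 0.21 against -0.1 with normexp background correction. Prom1 rose by 0.94 (adjusted p = 0.0207 in limma), Cftr, a chloride channel, by 0.83, Epcam, an epithelial adhesion protein, by 0.82 and Tspan8 by 0.71, while the duct keratin gene Krt7 fell by 0.61, named to complete the count. None of these 5 calls held with each array left out, and without ADBAQ replicate 1 none of the 4 increases was called, nor without ADBAQ replicate 3. With normexp background correction Cftr (0.14) and Tspan8 (0.25) were not called, whereas Prom1 (0.62) and Epcam (0.75) were. Only 1 of the 3 Cftr probes was detected on all arrays of a group. The summed level was 18.4 to 20.3 in vehicle and 18.9 to 20.7 in ADBAQ. Slc4a2, named for its level and not called, made up the largest part of it (log2 level 3.53 in vehicle and 3.3 in ADBAQ). The sum therefore says little about the dimmer markers. With spike-in scaling 13 of the 14 were higher, and Krt7 stood at 0.14. Among genes of epithelial junctions and keratins, 2 of 16 were higher and 2 lower, with a median of -0.14. Grhl2, an epithelial transcription factor, rose by 1.33 ± 0.17 (adjusted p = 0.00817), but its probes disagreed: one had a difference of -0.08 and one was at least 2.03-fold higher. Cldn1, a tight junction claudin, fell by 1.86 ± 0.11 (adjusted p = 0.00107) on the brightest of its 3 probes, and the other two gave -1.53 and -1.52. Esrp1, an epithelial splicing regulator, rose by 0.63 and Jup, plakoglobin, fell by 0.60, but Esrp1 was not called with normexp background correction or in 5 of the 6 fits that leave out an array, and Jup stood at 0.16 with spike-in scaling. The part of duct cells in the values of the 5 genes was not tested.

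**Figure D4:**
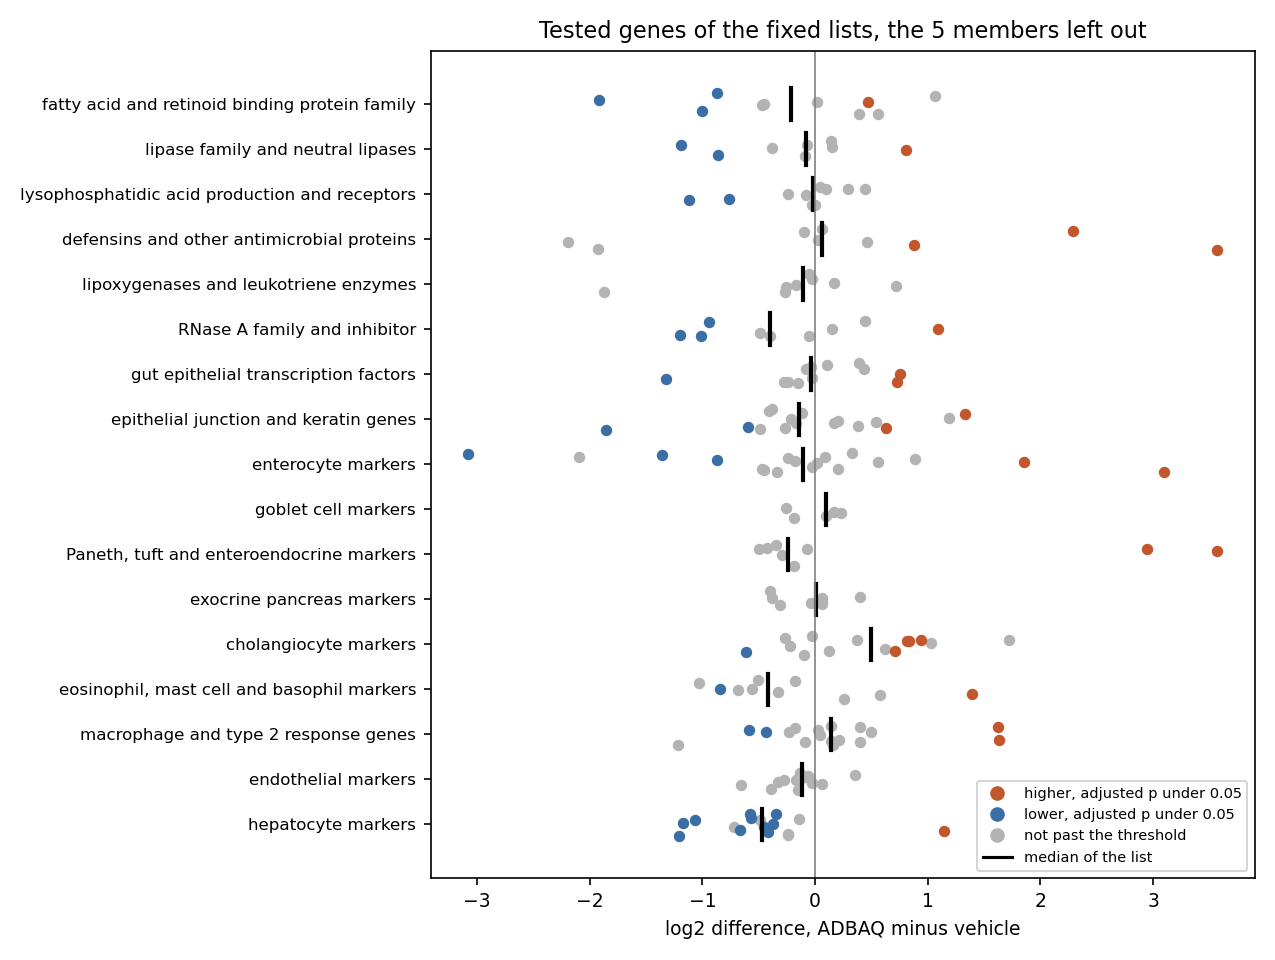
Each point is the log2 difference, ADBAQ minus vehicle, of 1 tested gene of a list (horizontal axis), with the 5 genes left out, lists in rows and a black bar at each list's median. Coloured points passed an adjusted p of 0.05, and calls in both directions appear in most rows, with a median of 0.50 for cholangiocyte markers and -0.47 for hepatocyte markers.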

How the data were processed

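Liver RNA of 3 vehicle and 3 ADBAQ rats was measured on 1-colour Agilent arrays. Per the file headers, the authors read them with Feature Extraction 10.7.1.1 (10.7 per the submitters' processing notes) on a design built on rn4. The deposited scanner files hold intensity on a linear scale (processed, median spot and median local background signal) and flags, which are columns of the kind other. The deposited series table holds a ratio, the processed signal over the array's 75th percentile, as found by setting it against the scanner values. Its column medians were 0.0967 to 0.0982 in vehicle and 0.0929 to 0.0971 in ADBAQ, and it is no independent check.

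Values are log2 of the processed signal minus that percentile. Probes detected on all 3 arrays of a group were kept (38695), after 0 to 2 outlier spots per array were left out. RefSeq accessions named 27460 probes and left 34197 unnamed. A gene is represented by its brightest kept probe. The comparison used limma 3.58.1 (R 4.3.3) with Benjamini-Hochberg adjustment over all probes kept, with moderated SEs for genes other than the 5, whose SEs come from their own arrays. The procedure was tested on simulated data. Members and lists were chosen with earlier results of these data known. Named are all probes of the 5 genes, up to 4 called genes per list by size of change, up to 2 of the brightest where none was called, and the 3 most correlated genes. Genes named outside this rule for their values or detection are marked or given as background. Some genes of the lists are counted but not reported here by name. Alternatives were normexp, quantile, median and spike-in scaling, the series table, other filters, eBayes with trend, array weights, the replicate block, the mean of probes, and each array left out. For normexp the median spot signal was taken. Coordinates of the genes are not given, since the array build is not that of the reference.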

Additional observations from a re-analysis of the deposited data

How the results depend on the processing

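Against 2308 calls among named genes, normexp background correction gave 4041, no filter on dim probes 3530, spike-in scaling 9130 and the replicate block 982, and leaving out each array gave 901 to 1547. The replicate numbers did not pair the samples: the deviations of same-numbered arrays correlated at -0.03, -0.02 and 0, and 0 of 3 vehicle arrays correlated best with their own number. The block left the difference of each of the 5 genes as it was. Slide as a block was not run, because each slide held 1 group.

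The log2 differences of the 5 genes kept their direction under each alternative run. This is no test of the direction, because the genes were picked for their rise. All their ADBAQ values lay above all their vehicle values, so leaving out an array could not reverse it. With normexp background correction they were 1.62 (Liph, from 4.51), 1.29 (Defb1, from 4.95), 1.82 (Alox15, from 2.68) and 0.76 (Rnase1, from 2.22). With dim values set at the lowest signal detected on their array they were 3.42 (Liph) and 2.90 (Defb1). With spike-in scaling they were 3.13 (Fabp2, from 2.37), 5.71 (Defb1), 3.44 (Alox15) and 2.97 (Rnase1), where the median of all genes lay at 0.72. Leaving out each array gave 2.04 to 2.76 for Fabp2, 3.95 to 5.11 for Liph, 4.45 to 5.22 for Defb1, 2.40 to 3.11 for Alox15 and 2.07 to 2.43 for Rnase1. Signal near background limits the size of the difference for Liph, Defb1 and Rnase1.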
